A study of Homo sapiens with 12 samples.

Results

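The genes described here are 42 members of the integrated stress response and of amino acid supply, out of 61552 genes in the deposited count table. They were chosen by name, as rows whose Ensembl identifier maps to a listed symbol. That rule uses no measured value, but the list was drawn up with earlier results of these data known. Sorted by role, they are 7 transcription regulators (ATF4, ATF5, CEBPB, CEBPG, DDIT3, NUPR1 and TRIB3), 8 stress effectors, 11 enzymes of amino acid and folate metabolism, 6 amino acid carriers and 10 tRNA synthetases. All 42 had a row and all passed the filter on low counts.

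The libraries are stranded mRNA-seq libraries of 2 human neuroblastoma cell lines, SK-N-BE(2), which the design calls MYCN-amplified, and SK-N-AS, which it calls MYCN-nonamplified. ML210 inhibits GPX4, a selenium-containing enzyme that clears lipid peroxides from membranes. The 4 groups were SK-N-BE(2) kept overnight with ML210, SK-N-BE(2) control, SK-N-AS kept overnight with ML210 and SK-N-AS control, with 3 libraries in each, 1 from each of 3 labelled batches. All are labelled wild type, and neither the ML210 dose nor what the controls received is given in the sources used here. Each MYCN status is represented by a single line, so the 2 cannot be told apart. Nothing beyond the batch label says that replicates came from separate cultures, and p-values then measure only the spread between these libraries, which may be technical.

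As background, ATF4 is a basic leucine zipper transcription factor. Its mRNA is translated more when stress kinases phosphorylate the initiation factor eIF2, as happens on amino acid shortage, unfolded protein in the endoplasmic reticulum or mitochondrial stress. ATF4 then binds, often with a C/EBP protein as partner, to elements in genes that make, import or charge amino acids, and in genes that feed back on translation and on the growth kinase complex mTORC1. Because ATF4 is controlled largely at translation, its mRNA level is not a measure of its activity.

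Library totals lay between 54047293 and 83481963 counted reads, and levels are given as CPM, the read count scaled to library totals after TMM normalization. MYCN goes against the line labels: it averaged 0.166 CPM in the controls labelled SK-N-BE(2) and 3558 CPM in those labelled SK-N-AS. The labels are kept here as given, and each direction between lines rests on labels that MYCN goes against. The adrenergic neuroblast markers HAND2 and GATA3 were present in all 12 libraries, at 142 to 607 CPM, but TH and DBH, which make catecholamines, stood at 0.372 and 5.06 CPM in controls labelled SK-N-BE(2), against 291.8 and 631.7 CPM in controls labelled SK-N-AS. Of 5 blood markers, summed at 263.8 to 329.7 CPM in controls labelled SK-N-BE(2) and 1.54 to 3.46 CPM in those labelled SK-N-AS, nearly all labelled SK-N-BE(2) was PTPRC, while the defining T cell marker CD3E had no read there. The 4 epithelial markers summed to 158.8 to 228.7 CPM and 1.57 to 4.35 CPM in those controls, carried by KRT8 and KRT18, and the 6 mesenchymal markers to 2274 to 2894 CPM and 237.8 to 306.3 CPM. The part of these markers in the differences between line labels was not tested. In the ML210 comparison labelled SK-N-BE(2), leaving out ML210 replicate 3 raised the share of all genes called to 2.64% higher and 3.26% lower, against 0.818% and 0.557% with it, and calls on members that this changed are given with and without that library.

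The C/EBP-ATF response element, the sequence ATF4 dimers are known to bind, is shown here because the members are taken as ATF4 targets. The motif TGATGNAAN was searched on both strands of RefSeq promoter windows (GRCh38.p14, 250 bases before to 50 after each start). It was found for 12 of 35 members with a window (34.3%), against 1215 of 27305 genes with a window (4.45%). A match is a description and not a shown binding site. Each matching member is given with 10 bases on either side, read 5′ to 3′ on the strand that carries the motif, with the motif in capitals.
CEBPG (chr19:33374061-33374089, plus strand): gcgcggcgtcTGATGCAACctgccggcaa
CHAC1 (chr15:40953251-40953279, minus strand): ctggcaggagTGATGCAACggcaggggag
ASNS (chr7:97872458-97872486, minus strand): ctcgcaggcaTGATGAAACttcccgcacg
SLC7A1 (chr13:29595663-29595691, minus strand): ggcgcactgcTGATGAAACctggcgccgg
SLC1A4 (chr2:64989381-64989409, minus strand): cggctggagaTGATGCAAAcgggagccgc
SLC1A5 (chr19:46784893-46784921, minus strand): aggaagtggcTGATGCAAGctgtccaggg
AARS1 (chr16:70289676-70289704, plus strand): ctaacttggcTGATGCAACtgcgagaaaa
GARS1 (chr7:30594834-30594862, minus strand): gctcggagcaTGATGAAATcgccgcgtaa
MARS1 (chr12:57488053-57488081, minus strand): aatccctcgcTGATGCAACcggaaccggc
NARS1 (chr18:57621804-57621832, minus strand): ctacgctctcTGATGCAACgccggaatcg
IARS1 (chr9:92293693-92293721, plus strand): cgcacggaggTGATGCAACgcgctgaaaa
TARS1 (chr5:33440956-33440984, minus strand): ctggaccagcTGATGCAATcgaaaggcgc

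The core read TGATGCAA in 9 of these and TGATGAAA in 3. Counted over members with a window, the motif was most frequent among the tRNA synthetases, in 6 of 9, and the carriers, in 3 of 6. The regulators, the stress effectors and the synthesis enzymes had it in 1 member each, of 6, 7 and 7 with a window. In CEBPG the element ran on the gene's own strand 38 bases before the start, and in CHAC1 it ran on the opposite strand 206 bases before it. The sequences of ALDH1L2, PSPH, SHMT2, PYCR1, YARS1, EIF4EBP1 and NUPR1 were not analysed here. No match in a window says only that these letters are not in it.

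Levels between genes were compared as RPKM, per length of all exons in GENCODE release 29. EIF4EBP1, which holds back cap-dependent translation, ranked highest of the 42 in every group, with 138.8 RPKM in controls labelled SK-N-BE(2) and 299.4 RPKM in those labelled SK-N-AS. The glutamine carrier SLC1A5 (87.4 RPKM) and ATF4 (61.02 RPKM) came next in controls labelled SK-N-BE(2), while PSAT1 (159 RPKM) and ATF4 (141 RPKM) did in those labelled SK-N-AS. The lowest member was NUPR1, a small stress-induced chromatin protein, at 0.0128 RPKM and 0.00776 RPKM in the same groups.

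The genes of this program were mostly at lower levels in SK-N-BE(2)-labelled controls than in SK-N-AS-labelled ones. The members furthest apart were ALDH1L2, VLDLR, PHGDH and SLC7A5, 9 of 10 tRNA synthetases were lower, and ATF4 itself was lower. Of the 42 members, 32 were lower and 5 higher at an edgeR quasi-likelihood adjusted p under 0.05 (76.2% and 11.9%), beside 35.2% lower and 33.9% higher of all 20304 genes tested. The median log2 difference of the members was -0.82, against -0.005 over all genes. In 33 members every control library labelled SK-N-BE(2) lay below every one labelled SK-N-AS, and in 5 above, where 37.7% and 36.3% of all genes did so. Their summed level was 4066, 3871 and 3886 CPM in controls labelled SK-N-BE(2), against 8034, 7494 and 7604 CPM in controls labelled SK-N-AS, a ratio of the means of 0.511. Scaling by library totals gave a median of 0.243 over all genes and -0.57 over the members, and 28 were lower and 5 higher, beside 27.3% and 42.2% of all genes, with ATF5, GDF15, SLC1A5 and SLC7A1 no longer called.

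**Figure D1:**
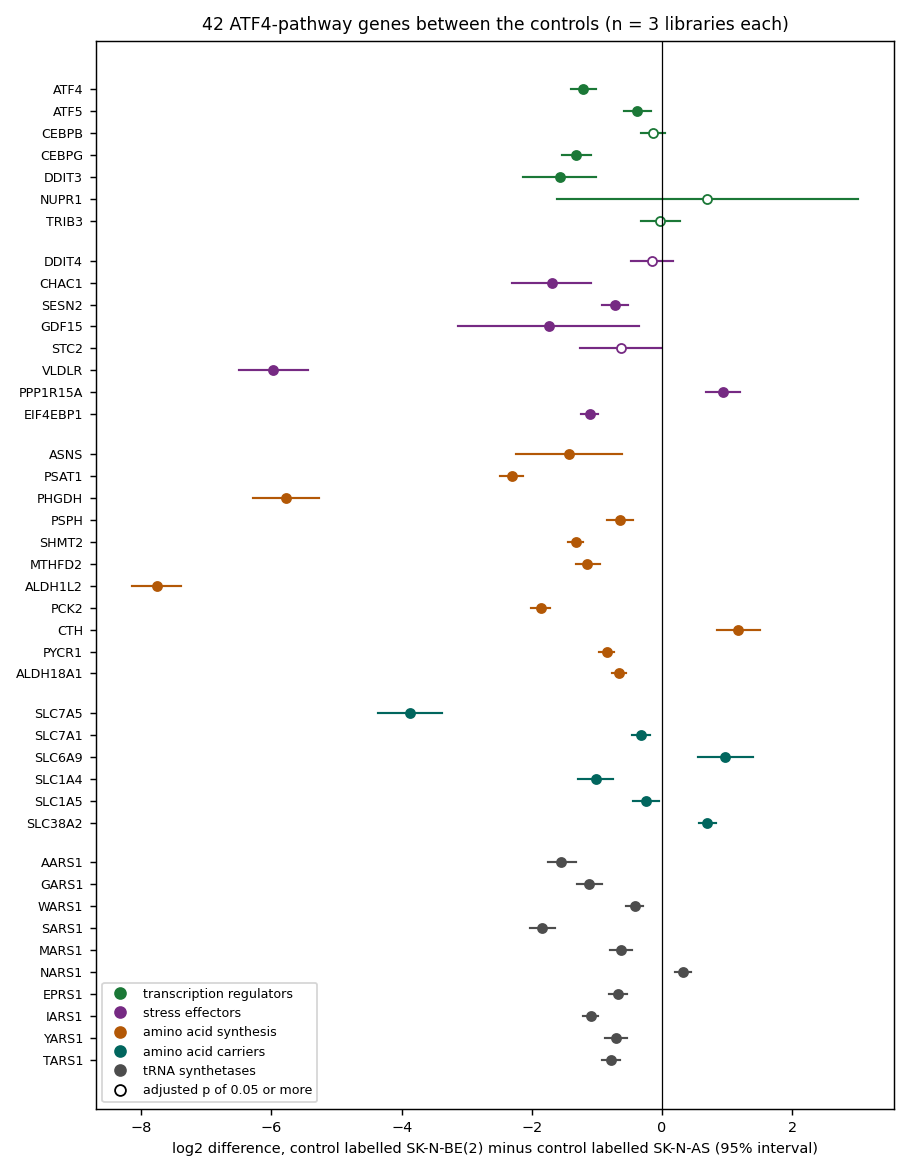
Log2 difference of each of the 42 members, SK-N-BE(2)-labelled controls minus SK-N-AS-labelled controls, with its 95% interval (3 libraries a group); colours mark the roles, and open circles are members with an adjusted p of 0.05 or more. The 32 members called lower lie left of 0, with ALDH1L2 (-7.76), VLDLR (-5.97), PHGDH (-5.78) and SLC7A5 (-3.87) furthest out, and 5 filled circles lie to the right.

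Of the regulators, 4 of 7 were lower and none higher (median log2 -0.38). ATF4 (ENSG00000128272, chromosome 22, 39519695 to 39522685 on GRCh38) had 155, 152 and 153 CPM in controls labelled SK-N-BE(2), against 393, 344 and 326 CPM in controls labelled SK-N-AS. The groups lay well apart, with a log2 difference of -1.21 (SE 0.0893, adjusted p = 3.05e-08). CEBPG, a dimer partner of ATF4, had 28.6, 26.6 and 27.7 CPM in controls labelled SK-N-BE(2) and 72.2, 64.5 and 70.3 CPM in controls labelled SK-N-AS (log2 -1.32, SE 0.100, adjusted p = 3.93e-08). DDIT3, which encodes the pro-apoptotic factor CHOP, was low in all libraries, with 1.38, 2.14 and 1.86 CPM labelled SK-N-BE(2) and 6.82, 5.05 and 4.16 CPM labelled SK-N-AS (log2 -1.57, adjusted p = 8.84e-05). Of the exon bases of DDIT3, 27.2% lie under the oppositely transcribed MARS1, and since the strand setting of the counting is not given, its reads cannot be told apart from those of MARS1 there. ATF5 differed by -0.38, but 21.2% of its exon bases lie under the oppositely transcribed NUP62, which had 142383 reads over all libraries. Its reads cannot be told apart from those of NUP62 there either. CEBPB (-0.14, adjusted p = 0.183), TRIB3 (-0.028, adjusted p = 0.867) and NUPR1 did not pass the test.

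Among the stress effectors 5 of 8 were lower and 1 higher (median log2 -0.92). VLDLR, the very low density lipoprotein receptor, was nearly absent from controls labelled SK-N-BE(2), with 0.373, 0.386 and 0.502 CPM, against 21.7, 28.1 and 29.9 CPM in those labelled SK-N-AS (log2 -5.97, SE 0.246, adjusted p = 1.63e-10). CHAC1, which breaks down glutathione, had 2.11, 2.07 and 2.69 CPM labelled SK-N-BE(2) and 9.81, 5.94 and 6.46 CPM labelled SK-N-AS (log2 -1.69, adjusted p = 0.000126). The leucine sensor SESN2 (-0.73) and EIF4EBP1 (-1.11) were lower too. GDF15, a secreted stress cytokine, had 0.130, 0.414 and 0.349 CPM labelled SK-N-BE(2) and 1.67, 0.833 and 0.521 CPM labelled SK-N-AS (log2 -1.74, SE 0.634, adjusted p = 0.0269), and its call was lost without SK-N-AS control replicate 1 or SK-N-BE(2) control replicate 1 or 3, with adjusted p up to 0.132 over all alternatives. The higher member was PPP1R15A (GADD34), which directs a phosphatase to eIF2 and so ends the response: 58.8, 59.5 and 60.9 CPM labelled SK-N-BE(2) against 33.5, 30.2 and 29.8 CPM labelled SK-N-AS (log2 0.94, SE 0.123, adjusted p = 1.48e-05). The mTORC1 inhibitor DDIT4 (-0.16, adjusted p = 0.356, or 0.0408 without SK-N-AS control replicate 1) and the secreted glycoprotein gene STC2 (-0.63, adjusted p = 0.0662) did not pass the test, and STC2 was called in the fit of these 6 controls alone and without SK-N-AS control replicate 1 or SK-N-BE(2) ML210 replicate 1 or 3.

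Amino acid and folate synthesis showed the widest gap of the roles: 10 of 11 members were lower and 1 higher (median log2 -1.33), and their summed level was 577.4 ± 3.56 CPM in controls labelled SK-N-BE(2) and 1804 ± 45.7 CPM in those labelled SK-N-AS (SD, n = 3 each). PHGDH (ENSG00000092621, chromosome 1, 119648411 to 119744226), which commits glycolytic carbon to serine, had 5.89, 5.13 and 9.09 CPM labelled SK-N-BE(2) and 404.9, 360.8 and 342 CPM labelled SK-N-AS (log2 -5.78, SE 0.228, adjusted p = 3.56e-09). The next enzymes of that path, PSAT1 (-2.31) and PSPH (-0.65), were lower by less. ALDH1L2 (ENSG00000136010, chromosome 12, 105019784 to 105084577), a mitochondrial folate dehydrogenase, had 0.341, 0.262 and 0.405 CPM labelled SK-N-BE(2) and 75.0, 71.4 and 73.5 CPM labelled SK-N-AS (log2 -7.76, SE 0.174, adjusted p = 5.77e-13). Its level labelled SK-N-BE(2) was 0.458% of that labelled SK-N-AS, from 69 and 14874 reads. The same share was 0.127% for TH and 0.00468% for MYCN, 2 genes abundant in the libraries labelled SK-N-AS. The mitochondrial folate enzymes SHMT2 (-1.33) and MTHFD2 (-1.15), the mitochondrial carboxykinase PCK2 (-1.86) and the proline enzymes PYCR1 (-0.85) and ALDH18A1 (-0.66) were lower. CTH, which makes cysteine from cystathionine, went the other way, with 5.50, 6.94 and 7.88 CPM labelled SK-N-BE(2) against 2.61, 3.33 and 3.10 CPM labelled SK-N-AS (log2 1.17, SE 0.153, adjusted p = 1.05e-05).

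The asparagine synthetase gene ASNS, a textbook ATF4 target, cannot be read firmly here. It had 23, 14 and 17 reads in controls labelled SK-N-BE(2) and 58, 46 and 42 reads in those labelled SK-N-AS (log2 -1.43, SE 0.376, adjusted p = 0.00385). Of its exon bases 44.6% lie under another gene of the same strand, ENSG00000284707, which itself had 400 reads over all 12 libraries. The pseudogene ASNSP1 had 6 reads in controls labelled SK-N-BE(2) and 258 in controls labelled SK-N-AS, more than ASNS had in the second group. How reads shared by such genes were assigned is not given in the sources used here, and the part of this in the ASNS level was not tested.

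Carriers were split, with 4 of 6 lower and 2 higher (median log2 -0.29). SLC7A5 (ENSG00000103257, chromosome 16, 87830023 to 87869488), the large neutral amino acid carrier LAT1, had 40.5, 34.0 and 36.0 CPM in controls labelled SK-N-BE(2) and 576.5, 501 and 540.7 CPM in those labelled SK-N-AS (log2 -3.87, SE 0.218, adjusted p = 6.96e-08). The serine and alanine carrier SLC1A4 had 17.0, 14.2 and 14.8 CPM labelled SK-N-BE(2) and 33.0, 28.2 and 31.8 CPM labelled SK-N-AS (log2 -1.02, SE 0.127, adjusted p = 6.29e-06). The arginine and lysine carrier SLC7A1 (-0.33) and SLC1A5 (-0.25, adjusted p = 0.0292) were lower by little, and SLC1A5 was called in 11 of 19 alternatives, its call being lost without SK-N-AS control replicate 1, SK-N-BE(2) control replicate 2 or 3, or SK-N-BE(2) ML210 replicate 2, with adjusted p up to 0.978. The glycine carrier SLC6A9 (0.97, adjusted p = 0.000585) and the sodium-coupled neutral amino acid carrier SLC38A2 (0.69, adjusted p = 1.88e-07) were higher. SLC38A2 had 412.7, 373 and 389 CPM labelled SK-N-BE(2) against 243, 247.5 and 239 CPM labelled SK-N-AS.

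Of the tRNA synthetases 9 of 10 were lower and 1 higher (median log2 -0.75), and their summed level was 1857 ± 60.5 CPM labelled SK-N-BE(2) and 3478 ± 156 CPM labelled SK-N-AS (SD, n = 3 each). SARS1, which charges serine tRNA, had 104, 108 and 107 CPM in controls labelled SK-N-BE(2) and 407, 368 and 364 CPM in controls labelled SK-N-AS (log2 -1.84, SE 0.0867, adjusted p = 3.16e-10). AARS1, for alanine, had 162, 150.4 and 144 CPM labelled SK-N-BE(2) and 470.0, 440.3 and 426 CPM labelled SK-N-AS (log2 -1.55, SE 0.0998, adjusted p = 1.07e-08). The enzymes for glycine (GARS1, -1.12) and isoleucine (IARS1, -1.10) followed, and TARS1, YARS1, EPRS1, MARS1 and WARS1 lay between -0.78 and -0.42. NARS1, for asparagine, was higher (0.32, SE 0.0571, adjusted p = 0.000177). Of the 12 members with the promoter motif, 11 were lower and 1 higher (median -1.06), and of the 23 with a window and no motif 15 were lower and 4 higher (median -0.68), given as a description. Of the 7 with no window 6 were lower and 0 higher (median -0.85). With ML210 labelled SK-N-BE(2) the medians were 0.18 with the motif, 0.25 with a window and no motif, and 0.24 with no window. With ML210 labelled SK-N-AS they were 0.09, 0.1 and 0.22.

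**Figure D2:**
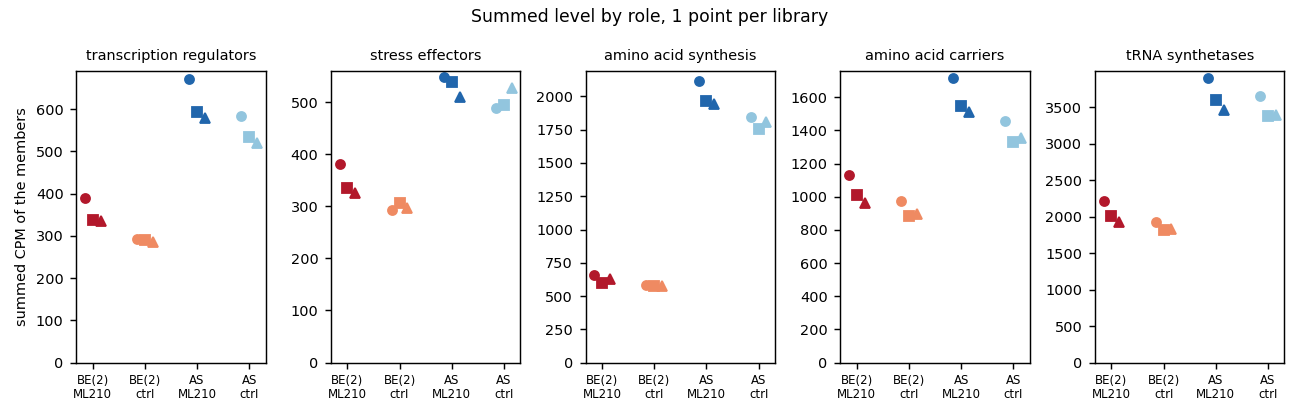
Summed CPM of the members of each role, 1 point per library (circle, square and triangle for replicates 1, 2 and 3), from left to right SK-N-BE(2) ML210, SK-N-BE(2) control, SK-N-AS ML210 and SK-N-AS control; axes start at 0. In each role every library labelled SK-N-BE(2) lies below every library labelled SK-N-AS, and for the synthesis enzymes the means of the controls are 577.4 and 1804 CPM.

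With ML210, the libraries labelled SK-N-BE(2) showed small upward differences across much of the program, few of them past the threshold. CEBPB and PYCR1 rose, 2 of 42 members (4.76%), beside 0.818% of all genes tested that were higher and 0.557% that were lower, and no member fell. The median log2 difference of the members was 0.23, against 0.001 over all genes, and 37 of the 42 estimates were above 0. In 26 members (61.9%) all 3 same-batch pairs were above 0, as in 20.4% of all genes, and 20 of the 42 had an unadjusted p under 0.05, beside 13.5% of all genes. All ML210 libraries lay above all controls in 16 members, and below them in 1, DDIT4, beside 9.22% and 8.18% of all genes.

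Because the labels give matching batches, the fit with a replicate block within each line label belongs beside these counts. It called 15 members, of which 14 rose (CEBPB, ATF4, TRIB3, PPP1R15A, PHGDH, PSAT1, PYCR1, SLC7A5, SLC6A9, SLC1A5, AARS1, GARS1, MARS1 and YARS1) and 1, DDIT4, fell, where 3.42% of all genes were higher and 3.4% lower. With a block shared by both line labels 8 members were called, beside 1.34% of all genes higher and 0.901% lower. DESeq2 called 8, with 7 higher and 1 lower, beside 2.35% and 1.92% of all genes. With no filter on low counts 5 were called, beside 0.736% of all genes higher and 0.768% lower. The fit of these 6 libraries alone called 0, beside 0.0816% of all genes higher and 0.196% lower. The count changed with single libraries: it was 9 without ML210 replicate 3, where 2.64% of all genes were higher and 3.26% lower, and 0 without control replicate 1, ML210 replicate 1 or ML210 replicate 2. It was 1, CEBPB, without control replicate 2, SK-N-AS control replicate 2 or SK-N-AS ML210 replicate 2. Without control replicate 3 it was also 1, PHGDH, with CEBPB and PYCR1 both lost. Among the fits that left out 1 library, shares over all genes were read only without ML210 replicate 3. The other counts are therefore given without that share and are not read as a result about the members. The batch 1 pair held the largest difference in 28 of 42 members, and the batch 3 pair the smallest in 24, beside 7504 and 6913 of all 20304 genes. The median over members was 0.316, 0.194 and 0.147 in the pairs of batches 1, 2 and 3, with 0.0 over all genes in each. The order was the same labelled SK-N-AS, with pairs as the batch labels give them. There these counts were 25 and 27 members, beside 6903 and 6979 of all genes, and the medians over members 0.147, 0.124 and 0.082.

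**Figure D3:**
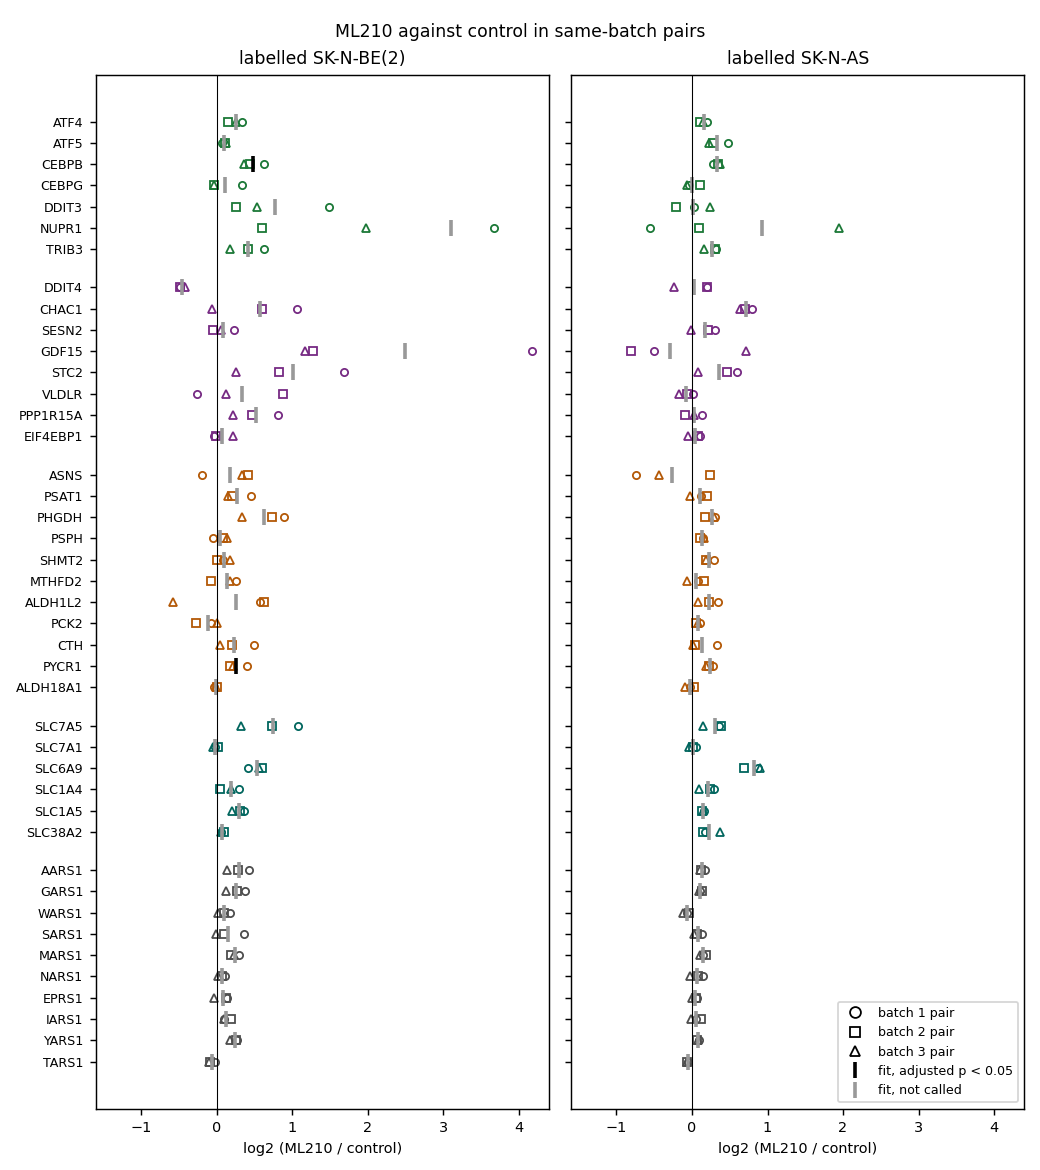
Log2 of ML210 over control for each member in the same-batch pairs (circle, square and triangle for batches 1, 2 and 3; 0.05 CPM added to both), labelled SK-N-BE(2) on the left and SK-N-AS on the right; vertical ticks are the fitted differences, black where called. Most points lie right of 0, the batch 1 circle is often furthest right, and the black ticks are those of CEBPB and PYCR1 labelled SK-N-BE(2).

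Among the regulators 1 of 7 rose (median log2 0.42). CEBPB (ENSG00000172216, chromosome 20, 50190734 to 50192689), a stress-responsive C/EBP factor, had 67.2, 68.2 and 54.3 CPM with ML210, against 43.4, 50.1 and 42.2 CPM in controls. The groups did not overlap, with a log2 difference of 0.48 (SE 0.0873, adjusted p = 0.0188, or 0.000741 with the block within lines). Its call was lost without control replicate 1 (adjusted p = 0.105) or 3 (0.0922) or ML210 replicate 1 (0.0981) or 2 (0.110), and in the fit of these 6 libraries alone (0.0994). Of its exon bases 11.8% lie under the oppositely transcribed CEBPB-AS1. ATF4 had 195, 169 and 183 CPM with ML210 and 155, 152 and 153 CPM in controls, again without overlap (log2 0.25, SE 0.0883, adjusted p = 0.203, or 0.0109 with the block within lines). DDIT3 had 3.93, 2.55 and 2.70 CPM with ML210 and 1.38, 2.14 and 1.86 CPM in controls (log2 0.77, SE 0.258, adjusted p = 0.178), a difference that passed the test in none of the alternatives. TRIB3, a pseudokinase that restrains ATF4, had 61.2, 49.2 and 45.4 CPM with ML210 and 39.6, 36.8 and 40.5 CPM in controls (log2 0.42, adjusted p = 0.173, or 0.0093 with the block within lines). ATF4 and TRIB3 were each called in only 1 of 19 alternatives, that block, with adjusted p up to 0.619 and 0.509. NUPR1 rested on 93, 12 and 22 reads with ML210 and 4, 8 and 3 reads in controls (adjusted p = 0.108, or 0.0477 without ML210 replicate 3), most of them in a single library. It was called in 2 of 19 alternatives, with adjusted p up to 0.584. No library of another group had more than 9 reads, so NUPR1 passed the filter only through the group where it is high. Its difference and p-value therefore carry no weight here, though counts and medians over the members include it.

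Of the 8 stress effectors none passed the test. PPP1R15A came closest, with 103, 82.7 and 71.1 CPM with ML210 and 58.8, 59.5 and 60.9 CPM in controls (log2 0.52, SE 0.121, adjusted p = 0.0552, or 0.0103 with the block within lines and 0.0049 without ML210 replicate 3). All ML210 libraries were above all controls, and replicate 1 was highest. CHAC1 had 4.45, 3.165 and 2.585 CPM with ML210 and 2.11, 2.07 and 2.69 CPM in controls, groups that overlapped (log2 0.57, SE 0.280, adjusted p = 0.413). STC2 and GDF15, picked out after their values were seen, varied most between ML210 libraries. STC2 had 74.8, 43.7 and 32.1 CPM with ML210 and 23.3, 24.6 and 26.8 CPM in controls (log2 1.01, SE 0.278, adjusted p = 0.126, or 0.0132 without ML210 replicate 3). GDF15 had 3.19, 1.08 and 0.847 CPM with ML210 and 0.130, 0.414 and 0.349 CPM in controls (log2 2.49, SE 0.634, adjusted p = 0.0798, or 0.0217 without ML210 replicate 3). In both genes the library of replicate 1 was far above the other ML210 libraries. DDIT4 had 32.1, 38.0 and 34.9 CPM with ML210 and 45.1, 52.9 and 46.8 CPM in controls (log2 -0.46, SE 0.149, adjusted p = 0.173, or 0.0057 with the block within lines). Of 19 alternatives, PPP1R15A was called in 6 (adjusted p up to 0.231) and STC2 in 2 (up to 0.33). GDF15 was called in 2 (up to 0.316) and DDIT4 in 2 (up to 0.461).

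**Figure D4:**
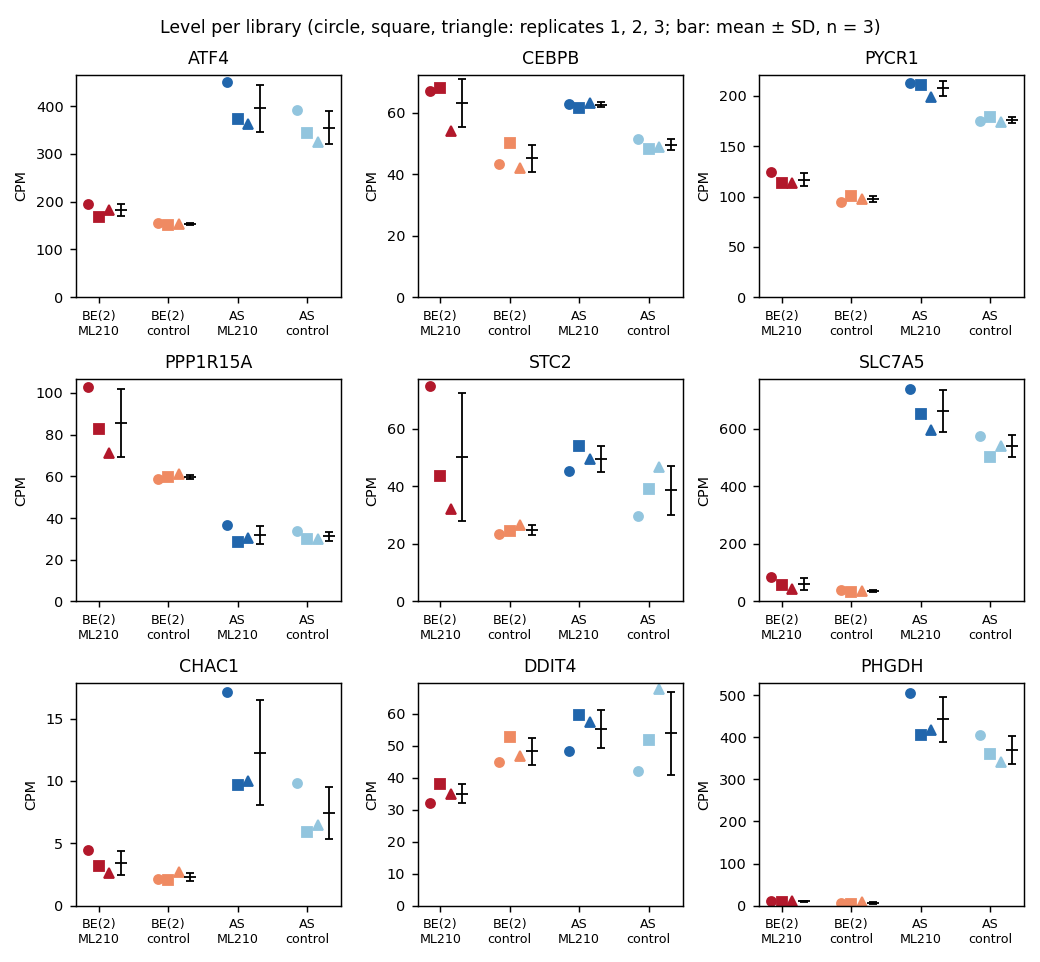
CPM of 9 members in every library (circle, square and triangle for replicates 1, 2 and 3), with the mean and SD of each group (n = 3) to the right; axes start at 0 and groups run SK-N-BE(2) ML210, SK-N-BE(2) control, SK-N-AS ML210 and SK-N-AS control. CEBPB, PYCR1, PPP1R15A, STC2 and SLC7A5 lie above their controls in every ML210 library labelled SK-N-BE(2), DDIT4 lies below, and PHGDH and SLC7A5 show the gap between line labels.

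Of the 11 synthesis enzymes 1 rose and none fell (median log2 0.18). PYCR1 (ENSG00000183010, chromosome 17, 81932384 to 81942412), which makes proline in mitochondria, had 124.5, 113 and 113 CPM with ML210 and 94.6, 100.5 and 97.6 CPM in controls (log2 0.26, SE 0.0534, adjusted p = 0.0301, or 0.0116 with the block within lines). Its call was lost without any 1 of 5 libraries of this label, all but ML210 replicate 3, with adjusted p from 0.0635 to 0.164. It was also lost without SK-N-AS control replicate 2 (0.0509) or SK-N-AS ML210 replicate 2. Of the exon bases of PYCR1 14.1% lie under MYADML2 on the same strand, which had 112 reads over all libraries. PHGDH had 11.0, 8.53 and 11.5 CPM with ML210 and 5.89, 5.13 and 9.09 CPM in controls, where control replicate 3 reached into the ML210 range (log2 0.62, SE 0.202, adjusted p = 0.189, or 0.00213 with the block within lines). PHGDH was called in 3 of 19 alternatives, with adjusted p up to 0.49. ASNS had 21, 17 and 22 reads with ML210 and 23, 14 and 17 reads in controls (log2 0.18, SE 0.390, adjusted p = 0.930). The other 8 had differences between -0.12 (PCK2) and 0.27 (PSAT1).

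None of the 6 carriers passed the test (median log2 0.24). SLC7A5, picked out after its values were seen, had 85.1, 56.4 and 44.98 CPM with ML210 and 40.5, 34.0 and 36.0 CPM in controls (log2 0.75, SE 0.198, adjusted p = 0.104, or 0.0213 with the block within lines and 0.00992 without ML210 replicate 3). SLC1A5 (log2 0.30, adjusted p = 0.151) passed with the block within lines (0.0035) and without ML210 replicate 3 (0.0354). SLC6A9 had 16.7, 21.4 and 19.6 CPM with ML210 and 12.5, 14.1 and 13.2 CPM in controls (log2 0.53, SE 0.190, adjusted p = 0.207, or 0.00377 with the block within lines). Of 19 alternatives SLC7A5 was called in 4, SLC1A5 in 3 and SLC6A9 in 1, with adjusted p up to 0.293, 0.574 and 0.563. None of the 10 tRNA synthetases passed either (median log2 0.14), and their estimates ran only between -0.07 (TARS1) and 0.29 (AARS1, adjusted p = 0.178, or 0.0251 without ML210 replicate 3). AARS1 was called in 3 of 19 alternatives, with adjusted p up to 0.629. The summed level of the tRNA synthetases was 2219, 2014 and 1921 CPM with ML210 and 1926, 1813 and 1833 CPM in controls.

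In the libraries labelled SK-N-AS no member passed the edgeR test with ML210, where 0.0246% of all genes tested were higher and 0.00493% lower. There were 7 of 42 members with an unadjusted p under 0.05, beside 6.89% of all genes, and DESeq2 called 2, SLC6A9 and PYCR1, beside 0.189% of all genes higher and 0.0888% lower. The block within lines also called 2, SLC6A9 (adjusted p = 0.00204) and CEBPB (adjusted p = 0.0493), beside 0.103% of all genes higher and 0.0837% lower. For batches 2 and 3 labelled SK-N-AS the block and the pairs rest on the batch label alone. The correlations given under the processing do not bear out that pairing. The median log2 difference of the members was 0.12, against -0.008 over all genes, 35 of 42 estimates were above 0, and 24 members (57.1%) were above 0 in all 3 pairs, as were 3043 of all 20304 genes. In 11 members all ML210 libraries lay above all controls and in 0 below, beside 6.01% and 8.86% of all genes.

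Mitochondrially encoded transcripts, a check on the make-up of the libraries, summed to 47550, 44870 and 54310 CPM with ML210 and 52790, 60920 and 67770 CPM in controls labelled SK-N-AS, with overlap. Labelled SK-N-BE(2) they summed to 23160, 27460 and 19890 CPM with ML210 and 21840, 19590 and 22490 CPM in controls. The part of this in the differences of the members was not tested.

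The 3 members of smallest p labelled SK-N-AS were SLC6A9, PYCR1 and SHMT2. SLC6A9 had 15.7, 10.6 and 9.80 CPM with ML210 and 8.53, 6.58 and 5.23 CPM in controls labelled SK-N-AS (log2 0.82, SE 0.194, adjusted p = 0.364), and replicate 1 was highest in both groups. PYCR1 had 213, 211 and 199 CPM with ML210 and 175, 179 and 174 CPM in controls (log2 0.24, SE 0.0532, adjusted p = 0.333). SHMT2, which splits serine into glycine and a folate-bound carbon in mitochondria, had 386.5, 354 and 356 CPM with ML210 and 316, 310 and 312 CPM in controls (log2 0.23, SE 0.0513, adjusted p = 0.338). In these 3 genes the groups did not overlap.

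ATF4 had 451, 372 and 362 CPM with ML210 and 393, 344 and 326 CPM in controls labelled SK-N-AS, groups that overlapped (log2 0.16, SE 0.0880, adjusted p = 0.788). CEBPB had 62.9, 61.7 and 63.3 CPM with ML210 and 51.6, 48.4 and 48.98 CPM in controls, without overlap (log2 0.33, SE 0.0872, adjusted p = 0.425). CHAC1 had 17.1, 9.66 and 10.0 CPM with ML210 and 9.81, 5.94 and 6.46 CPM in controls, and was higher in each of the 3 pairs although the groups overlapped (log2 0.72, SE 0.266, adjusted p = 0.627). PHGDH had 504, 405 and 417 CPM with ML210 and 404.9, 360.8 and 342 CPM in controls (log2 0.26, SE 0.181, adjusted p = 0.841). DDIT3 had 6.97, 4.36 and 4.91 CPM with ML210 and 6.82, 5.05 and 4.16 CPM in controls (log2 0.015, SE 0.247, adjusted p = 1.0). ASNS had 22, 60 and 30 reads with ML210 and 58, 46 and 42 reads in controls (log2 -0.26, SE 0.357, adjusted p = 0.954), with replicate 2 alone above the controls. By role the medians were 0.26 for regulators, 0.04 for stress effectors, 0.13 for synthesis enzymes, 0.22 for carriers and 0.08 for tRNA synthetases.

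The ML210 responses of the line labels were compared directly, as the response labelled SK-N-BE(2) minus that labelled SK-N-AS. No member passed this test with edgeR or with DESeq2, where 0.00493% of all genes tested were lower and 0.0% higher with edgeR, and 0.0829% and 0.148% with DESeq2. With edgeR 4 of 42 members had an unadjusted p under 0.05, beside 7.16% of all genes. These 4 were GDF15 (2.78, 95% interval 0.90 to 4.67), PPP1R15A (0.49, 0.12 to 0.87), DDIT4 (-0.50, -0.96 to -0.04) and PCK2 (-0.20, upper bound at 0). Their adjusted p with edgeR was 0.535, 0.609, 0.658 and 0.694. GDF15 had 210, 67 and 60 reads in the ML210 libraries labelled SK-N-BE(2), most of them in replicate 1. For ATF4 the difference was 0.091 with an interval of -0.18 to 0.36, and for CEBPB 0.15 with one of -0.12 to 0.41. The intervals were -0.01 to 1.52 for DDIT3, -0.99 to 0.68 for CHAC1, -0.70 to 1.57 for ASNS and -0.24 to 0.97 for PHGDH. The rise of CEBPB and PYCR1 labelled SK-N-BE(2) is therefore not shown to differ from the response labelled SK-N-AS, and for PYCR1 the difference was 0.024 (-0.14 to 0.19).

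Outside the 42 members, 103 genes in 6 further lists of the same pathways were read from the same fit, of which 95 were tested. With ML210 labelled SK-N-BE(2), 2 rose and none fell (2.11%, median 0.00), both carriers. SLC7A11, the cystine importer xCT, had 79.8, 37.9 and 22.6 CPM with ML210 and 13.0, 11.0 and 10.9 CPM in controls (log2 2.01, SE 0.376, adjusted p = 0.0377). Its call held in 6 of 19 alternatives, with adjusted p up to 0.204, and was lost when any library was left out other than ML210 replicate 1 or 3 of this label. SLC7A8, a neutral amino acid carrier, had 9.73, 5.67 and 3.12 CPM with ML210 and 1.57, 1.77 and 1.58 CPM in controls (log2 1.91, SE 0.346, adjusted p = 0.0188). It was called in 13 of 19 alternatives, and lost without any 1 of the 3 controls of this label or ML210 replicate 1 or 2 (adjusted p from 0.058 to 0.0868). SLC7A8 was also lost in the fit of only the libraries of this label, and its adjusted p reached 0.103 over all alternatives. In both genes the 3 ML210 libraries stood above every control and replicate 1 was highest. With ML210 labelled SK-N-AS 0 of 95 passed the edgeR test (median -0.02). There SLC7A11 had 19.9, 17.8 and 19.3 CPM with ML210 and 7.78, 9.37 and 9.35 CPM in controls, without overlap (log2 1.10, SE 0.374, adjusted p = 0.614). SLC7A8 had 1.02, 0.924 and 1.32 CPM with ML210 and 0.364, 0.673 and 0.427 CPM in controls, also without overlap (log2 1.17, SE 0.386, adjusted p = 0.572). The responses of the line labels differed by 0.91 for SLC7A11 (95% interval -0.27 to 2.08) and by 0.74 for SLC7A8 (-0.37 to 1.86), and neither passed the test of the difference.

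Between the controls, 48 of the 95 were lower and 32 higher labelled SK-N-BE(2) (50.5% and 33.7%, median -0.17). Of the eIF2 kinases and eIF2 cycle genes 6 of 20 were lower and 9 higher (median 0.10), beside the 35.2% lower and 33.9% higher of all genes. Other regulators had 9 of 14 lower and 4 higher, other synthesis enzymes 11 of 17 lower and 4 higher, and other carriers 7 of 15 lower and 4 higher. Other cytosolic tRNA synthetases and their partners had 7 of 13 lower and 4 higher, and mitochondrial tRNA synthetases 8 of 16 lower and 7 higher. The largest differences upward were in the C/EBP factor CEBPD (5.75, with 17.8 CPM labelled SK-N-BE(2) and 0.333 CPM labelled SK-N-AS), BATF2 (2.98) and the ATF-like repressor JDP2 (2.40). Those downward were in CEBPA (-3.13, with 0.184 and 1.61 CPM in the same groups), the carrier SLC7A6 (-2.44) and the mitochondrial folate enzyme MTHFD1L (-2.33). All 6 were called in all 19 alternatives.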

How the data were processed

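Column-purified RNA was sequenced as stranded mRNA libraries on an Illumina NovaSeq, per the labels' protocols. The deposited values were raw counts per Ensembl gene. The submitters' processing notes name GRCh38 (hg38), FastQC, Trimmomatic, HISAT2 2.2.1 and featureCounts 2.0.5. How strand, annotation and multi-mapping reads were set is not given in the sources used here.

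Groups came from the sample titles. In edgeR 4.0.16 (R 4.3.3), filterByExpr by group left 20304 genes, libraries were TMM-scaled, and all 12 entered 1 robust quasi-likelihood fit of 4 group means, with 8 residual degrees of freedom, tested two-sided with Benjamini-Hochberg adjustment over all genes and calls at an adjusted p under 0.05. SE and 95% intervals come from that fit. Simulated data, with changes larger than most members showed with ML210, tested its recovery of changes and its false calls, not its intervals. The alternatives were DESeq2 1.42.0, library totals, DESeq2 size factors in edgeR, no filter, 2 replicate blocks, only the groups compared and leaving out each library. Pair values add 0.05 CPM. Motifs and overlaps with GENCODE release 29 were counted in Python 3.11.15, with promoter windows from RefSeq. Gene symbols came from a reference table for 61399 identifiers.

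Members, lists and tests were chosen with earlier results of these data known. The text names ATF4, DDIT3, CHAC1, ASNS and PHGDH by role, members called with ML210 or else the 3 of smallest p, and the 2 largest of each role between controls. Of the other pathway genes it names those called with ML210 and the 3 largest each way between controls. Other genes given by library were chosen after their values were seen. The batch label equals the replicate number in every library, so same-numbered libraries were treated as paired. Deviations from the group means of same-batch libraries correlated at 0.096, 0.12 and 0.169 labelled SK-N-BE(2), at 0.357, 0.068 and 0.121 labelled SK-N-AS, and at -0.082, -0.003 and -0.027 between the controls. Different-batch libraries labelled SK-N-BE(2) correlated between -0.1 and -0.007. Labelled SK-N-AS, ML210 replicate 3 with control replicate 2 gave 0.189, and ML210 replicate 2 with control replicate 3 gave 0.125. Both lay above the same-batch 0.068 and 0.121 of batches 2 and 3 labelled SK-N-AS. The correlations therefore do not bear out that pairing, which rests on the batch label alone.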

Additional observations from a re-analysis of the deposited data

How the results depend on the processing

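Of the alternative values for the counts and medians over members 22 moved and 128 did not. In the libraries labelled SK-N-BE(2), the count of members called with ML210 was 2, against 8 with DESeq2, 5 with no filter on low counts, 15 with the replicate block within each line label, 8 with the replicate block shared by both line labels (chosen after seeing the data) and 0 in the fit of these libraries alone. Leaving out 1 library at a time gave 0 to 9, and a median of 0.133 (without ML210 replicate 1) to 0.232. In those labelled SK-N-AS the count was 0, against 2 with DESeq2 and 2 with the block within lines, and 0 in each fit that left out 1 library. The median was 0.172 with library totals and 0.065 (without ML210 replicate 1) to 0.163 (without control replicate 1) over the fits that left out 1 library. For the difference of the responses the count was 0 throughout, and the median lay between 0.0 (without SK-N-BE(2) ML210 replicate 1) and 0.126. Between the controls the count was 35 to 38 with 1 library left out, and the median -0.832 to -0.761, or -0.57 with library totals. For fits that left out 1 library, shares over all genes were read only for ML210 labelled SK-N-BE(2), without ML210 replicate 3. Under some alternative the sign of the difference changed, at 2 decimals, in 6 of 42 members with ML210 labelled SK-N-BE(2), in 8 labelled SK-N-AS, in 14 for the difference of responses and in 3 between the controls, and none of these had passed the test. Those between the controls were CEBPB, TRIB3 and DDIT4, at 0.11, 0.22 and 0.09 with library totals. DDIT3 with ML210 labelled SK-N-AS was -0.03 without control replicate 2, -0.14 without control replicate 3 and -0.21 without ML210 replicate 1, in a range up to 0.23. ASNS with ML210 labelled SK-N-BE(2) was -0.03 without control replicate 2, in a range up to 0.47. CHAC1 in the difference of responses was 0.16 without SK-N-AS ML210 replicate 1, in a range down to -0.42. The causes were not tested. The fit of only the groups compared was not run for the difference of responses. The blocked fits changed no call between the controls. Low counts limit NUPR1, ASNS, GDF15 and DDIT3. Labelled SK-N-BE(2) they also limit ALDH1L2 (69 reads in controls and 80 with ML210) and VLDLR (87 and 106).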
